A study of Populus trichocarpa with 45 samples.

Results

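The genes described here are 100 genes of Populus trichocarpa, the black cottonwood, whose leaf transcript level in tree 14 lay farthest from that in trees 13 and 4. They were chosen from 34700 annotated genes by their measured values. Expression was first averaged on the log2(TPM + 1) scale over the libraries of a branch and then over the 5 branches of a tree, where TPM is the level the authors deposited, a transcript share scaled to the library total. Of 19893 genes with a mean of at least 2 TPM over 45 libraries, 14834 differed by less than 0.3 log2 units between tree 4 and tree 13. The 100 of these with the largest absolute difference between tree 14 and the mean of trees 13 and 4 were taken, of which 18 were higher and 82 were lower in tree 14.

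RNA came from leaves of 5 branches each of tree 14, tree 13 and tree 4, with 3 libraries per branch and 15 per tree. The study's text describes trees 14 and 13 as stems of 1 wild individual that share a root system and tree 4 as a different tree, whereas by the growth protocol of the labels every sample came from 1 wild tree. No treatment was applied, and the trees differ in whatever their position, leaves and sampling differed in, which cannot be told apart with 1 stem each. The study names the 3 libraries of a branch biological replicates in one place and technical replicates in another, so that p-values between branches measure spread between libraries that may be technical.

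A tree grows by many meristems, each of which builds its own branch from its own lineage of cells. Leaves of different branches share nearly all of their genome, while their light, age, water status and exposure to insects and microbes can differ, and transcript levels respond to each of these. In leaf RNA taken in bulk, fewer cells of a type and less RNA per cell cannot be told apart. The identifiers matched 0 entries of the reference gene table, so the genes are given by identifier and position in version 1 of the Stettler genome, with no role, and no leaf marker gene could be looked up.

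The balance of 18 higher to 82 lower genes depended on the scale. Over the 14834 genes that could be chosen, the median difference of tree 14 was -0.15 log2 units on deposited TPM, and 9.03% of them were higher in tree 14. After each library was divided by its median-of-ratios factor, which gives scaled TPM, the median difference was -0.00 and 49.0% were higher. The same rule on scaled TPM took 67 higher and 33 lower genes and shared 48 with the 100, of which 16 were higher and 32 were lower. All 18 higher and all 82 lower genes kept their direction on scaled TPM. Their differences on deposited TPM were at least 0.53 log2 units in size, well beyond the shift of the median, so that reversals were unlikely. Scaled TPM is the scale used for every level, difference and test below unless deposited TPM is named.

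**Figure D1:**
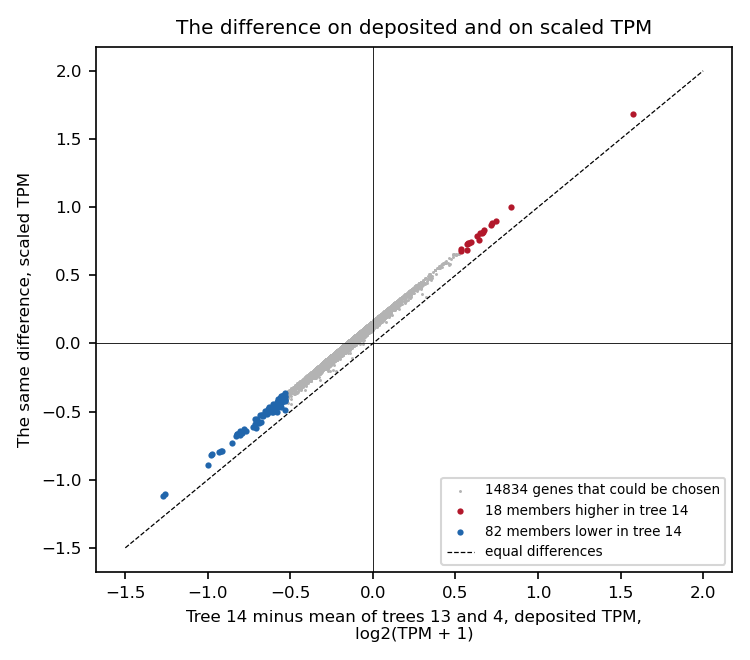
Difference of tree 14 from the mean of trees 13 and 4 in log2 units on deposited TPM (x axis) and on scaled TPM (y axis) for the 14834 genes that could be chosen (grey), the 18 higher (red) and the 82 lower members (blue); the dashed line marks equal differences. The cloud lies above the dashed line, and scaled TPM moved the lower members towards 0 and the higher members away from it.

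A set of 185 genes had levels that moved together between libraries, and whether it had a part in this shift was not tested. Its share of the TPM total of a library was 1.03 to 50.6%, and it had medians of 6.77% over tree 14, 3.86% over tree 13 and 5.58% over tree 4. The largest share was in 14.1 replicate 3, which also had the lowest depth of 11800000 fragments, against a median of 23760000 and a maximum of 35710000 over 45 libraries. Of the members, 6 of 18 higher and 2 of 82 lower genes belonged to this set, against 0.384% of the genes that could be chosen. With the set left out of the TPM total, an alternative chosen after seeing the data, the rule took 27 higher and 73 lower genes and shared 73 with the 100. On scaled TPM it took 67 and 33. At median depth, 18.2 fragments in a transcript 1 kilobase long made up 1 TPM.

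The differences were moderate. Among the 18 higher genes the difference of tree 14 ran from 0.68 to 1.68 log2 units with a median of 0.80, and among the 82 lower genes from -1.12 to -0.37 with a median of -0.47. Only 2 higher and 2 lower genes reached 1 log2 unit. Mean levels over the 45 libraries ran from 2.25 to 185 deposited TPM for the higher genes and from just above the minimum of 2 to 534 for the lower genes. The genes just inside the limit of the rule were PtStettler14.02G033400 and PtStettler14.18G075400, with differences of -0.53 on deposited TPM for each, and those just outside it were PtStettler14.05G147200 and PtStettler14.14G120900, also at -0.53 each. The limit therefore falls in a continuous range of values. In limma on branch means, 9 of 18 higher and 39 of 82 lower genes had an adjusted p of at most 0.05 for tree 14 against trees 13 and 4, where 5.58% of 23816 tested genes did, 3.60% higher and 1.98% lower in tree 14. The rule used this contrast, and nothing is read from the count.

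**Figure D2:**
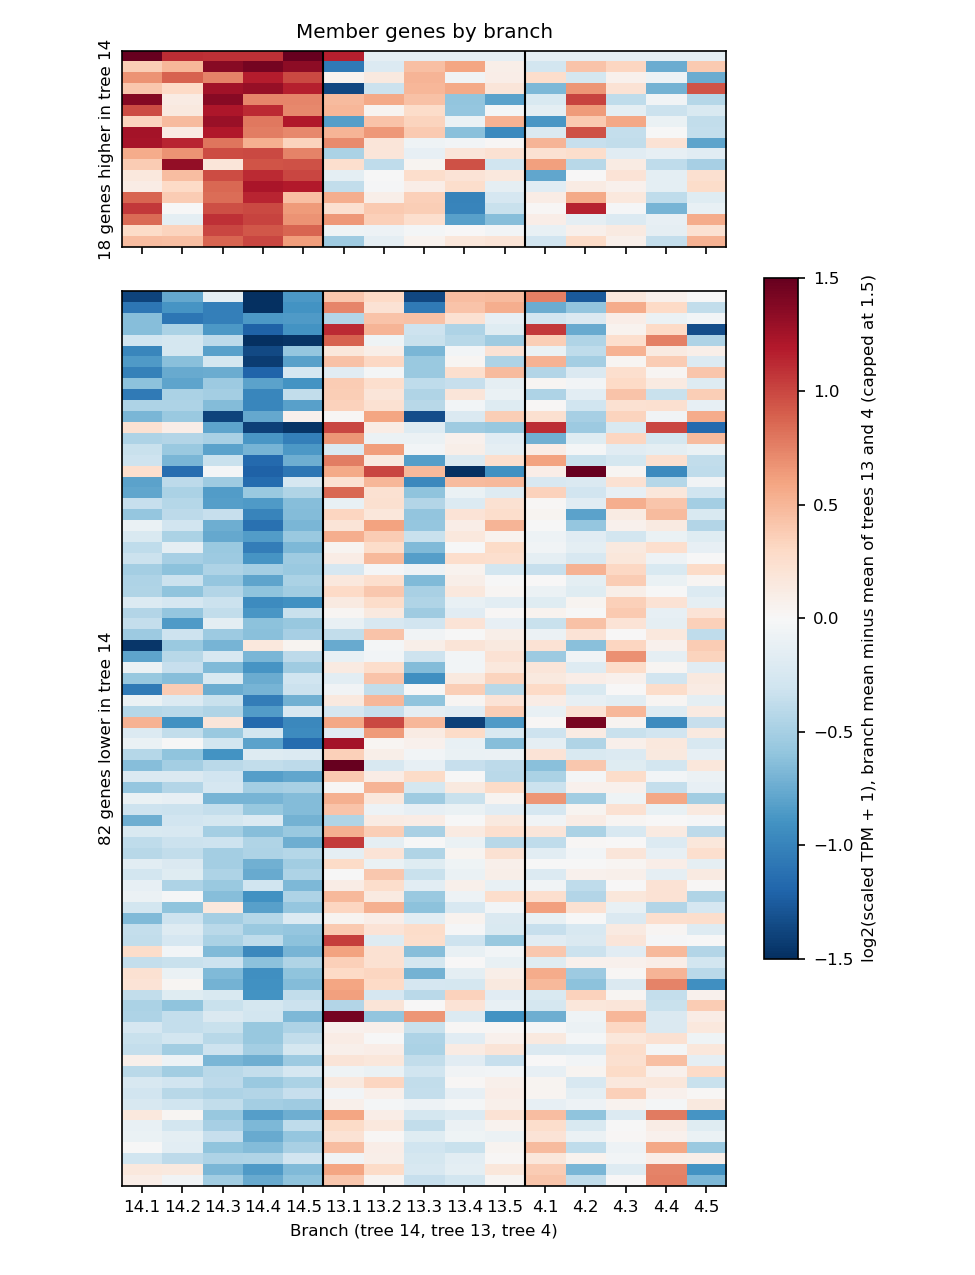
Branch means of log2(scaled TPM + 1) minus the mean of trees 13 and 4, for the 18 higher genes (top) and the 82 lower genes (bottom), each ordered by the size of the difference, over the 5 branches of tree 14, of tree 13 and of tree 4. Colour is capped at 1.5 log2 units; columns 14.3 to 14.5 are deepest in the top block, column 14.4 is deepest in the bottom block, and few rows are uniform within tree 14.

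The higher genes were carried mainly by branches 14.3, 14.4 and 14.5. Branches were compared by their means on the log2 scale. The median deviation of these genes from the mean of trees 13 and 4 was 0.62 log2 units in 14.1, 0.42 in 14.2, 0.99 in 14.3, 1.01 in 14.4 and 0.81 in 14.5. The branch mean lay above all 10 branches of the other trees for 10 of 18 genes in 14.1, 7 in 14.2, 15 in 14.3, 12 in 14.4 and 13 in 14.5. The corresponding shares of the genes that could be chosen were 7.06%, 5.16%, 11.5%, 13.9% and 12%. Only 3 higher genes were above the other trees in all 5 branches, against 0.553% of the genes that could be chosen, and 11 were above them in 14.3, 14.4 and 14.5 together. Since these levels went into the tree mean, the counts describe how the choice was met and are no test.

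The lower genes were carried most by branch 14.4. Their median deviation was -0.36 log2 units in 14.1, -0.36 in 14.2, -0.49 in 14.3, -0.76 in 14.4 and -0.56 in 14.5. The branch mean lay below all 10 other branches for 30 of 82 genes in 14.1, 28 in 14.2, 41 in 14.3, 64 in 14.4 and 41 in 14.5, where 7.24%, 6.03%, 10.6%, 12.3% and 9.71% of the genes that could be chosen did. Branch 14.4 was the farthest of the 5 from the other trees for 49 of the 82 lower genes and for 8 of the 18 higher genes. A single library, 14.4 replicate 2, was the lowest of all 45 for 23 lower genes and the highest for 7 higher genes. Next among the lower genes was 13.3 replicate 3, lowest for 15, and 14.4 replicate 3 was lowest for 7. The share of all genes with their extreme in these libraries was not counted. Only 9 lower genes were below the other trees in all 5 branches, against 0.303% of the genes that could be chosen, while 10 were below them in 14.4 only and 8 in no branch.

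**Figure D3:**
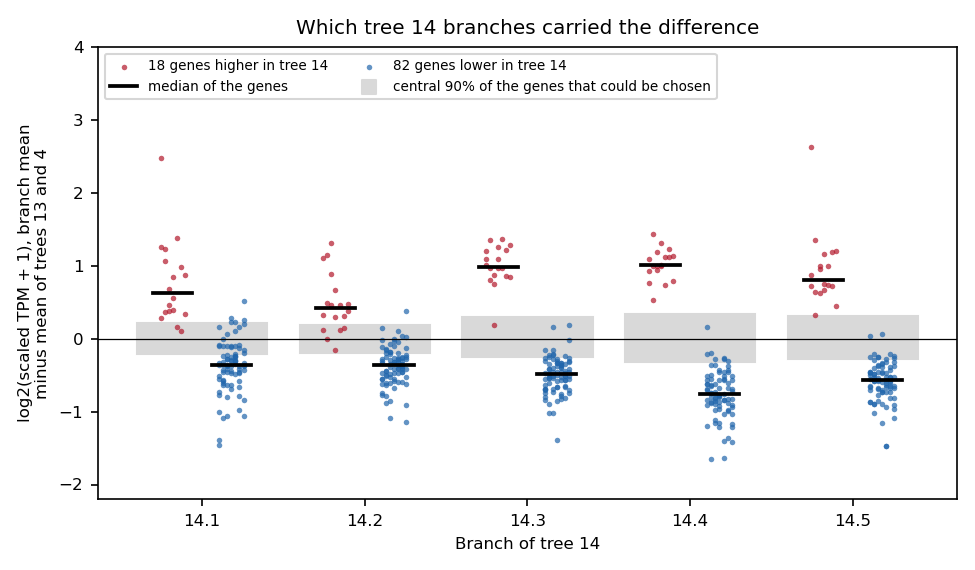
Deviation of each tree 14 branch mean from the mean of trees 13 and 4 in log2(scaled TPM + 1), for the 18 higher genes (red points) and the 82 lower genes (blue points), with their medians (black bars) and the central 90% of the genes that could be chosen (grey boxes). The medians of the higher genes run from 0.42 in 14.2 to 1.01 in 14.4 and those of the lower genes from -0.36 in 14.1 and 14.2 to -0.76 in 14.4.

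Differences among the 5 branches of tree 14 were then tested with limma on the 45 libraries, a contrast the rule did not use, although a gene whose tree mean was moved by 1 branch was likelier to be chosen. The F test called 9 of 18 higher and 23 of 82 lower genes at an adjusted p of at most 0.05, where 21.3% of 23816 genes were called. Within tree 13 the same test called 7 of 18 higher and 28 of 82 lower genes, with 21.1% of all genes. Within tree 4 it called 8 of 18 and 24 of 82, with 30.2% of all genes. Of the lower genes these are 28.0%, 34.1% and 29.3%, near the shares of all genes in trees 14 and 4.

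The members were also compared over the split of tree 14 into branches 14.3, 14.4 and 14.5 against 14.1 and 14.2. The levels of these branches went into the choice and set its direction. Limma called 8 of 18 higher genes, of which 7 were higher and 1 was lower in 14.3 to 14.5, and 24 of 82 lower genes, of which 1 was higher and 23 were lower there. Over all 23816 genes 28.0% were called, 13.9% higher and 14.1% lower in 14.3 to 14.5. The median log2 change over the split was 0.36 for the higher genes, -0.22 for the lower genes and 0.01 for all genes tested.

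Each branch was then taken singly against the other 4 branches of tree 14. Most called members lay towards trees 13 and 4 in 14.1 and 14.2 and away from them in 14.4. For 14.1, limma called 7 of 18 higher genes, 6 of them lower in 14.1, and 15 of 82 lower genes, all 15 higher in 14.1, with 16.3% of all genes called, 8.46% higher and 7.89% lower in 14.1. For 14.2 it called 5 and 12, of which 4 were lower and 11 were higher in 14.2, with 4.73% of all genes, 2.48% higher and 2.25% lower. For 14.4 it called 7 higher genes, all 7 higher in 14.4, and 14 lower genes, all 14 lower in 14.4, with 9.35% of all genes, 3.94% higher and 5.41% lower. The called higher and lower genes thus both lay outward in 14.4. However, the levels of all 5 branches went into the choice, and over the genes that could be chosen deviations spread most in 14.4. Their central range was -0.32 to 0.34 log2 units there, against -0.21 to 0.22 in 14.1 and -0.20 to 0.19 in 14.2. The choice therefore favoured genes far out in 14.4, and less so in 14.1 and 14.2, in either direction. No conclusion on 14.1, 14.2 or 14.4 is drawn from these calls. For 14.5 limma called 4 and 7 with 4.68% of all genes, and for 14.3 it called 2 and 1 with 1.37%. Leaving out 14.4 replicate 2 left 10 of the 21 members called for 14.4, leaving out 14.4 replicate 1 left 13, and leaving out any 1 library of 14.2 left 8 to 11 of the 17 called for 14.2. On deposited TPM limma called 0 members for 14.4, with 21 at an unadjusted p under 0.05.

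To look at branches that had no part in the choice, the rule was run on scaled TPM with 4 branches of tree 14, and the fifth was then looked at. With 14.3 held out, 61 of 61 higher and 33 of 39 lower genes were on the same side in 14.3, with 14.4 held out 62 of 62 and 35 of 38, and with 14.5 held out 63 of 64 and 32 of 36. With 14.1 held out it was 57 of 69 higher and 24 of 31 lower genes, and with 14.2 held out 44 of 77 and 21 of 23. Between 48.4% and 51.6% of the genes that could be chosen were on each side of the other trees in these branches. The held-out median of the higher genes was 0.31 log2 units in 14.1, 0.11 in 14.2, 0.71 in 14.3, 0.85 in 14.4 and 0.68 in 14.5, and that of the lower genes was -0.35, -0.46, -0.37, -0.78 and -0.51 in the same order. The lists differed between branches and shared 45, 38, 50, 49 and 47 genes with the members in the same order. Their medians are thus over different genes. The median in 14.4 was farthest from the other trees for both directions. That in 14.2 was nearest for the higher genes, and those in 14.1 and 14.3 were nearest for the lower genes. On deposited TPM 14.4 was also farthest, at 0.85 and -0.71. There 14.1 was nearest for the higher genes at 0.098 and 14.2 for the lower genes at -0.26. On that scale 97.4% of the genes that could be chosen were lower in 14.1 and 53.9% in 14.2. The values of trees 13 and 4 were the same in the choice and in the held-out difference, which favours the same side. All held-out branches belong to the same stem, so this measures agreement between branches of tree 14 and not between trees.

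Among the higher genes, 3 stood apart in every branch of tree 14. PtStettler14.10G114700 lies at 14637252 to 14639804 of chromosome 10, minus strand. Its branch means were 16.1, 18.7, 16.8, 23.3 and 20.3 scaled TPM in 14.1 to 14.5, against 9.35 to 14.2 in tree 13 and 5.36 to 11.8 in tree 4. Single libraries overlapped slightly, with a lowest value of 15.5, a median of 18.7 and a highest of 26.4 in tree 14, against 7.98, 10.4 and 15.9 in tree 13 and 4.72, 8.83 and 13.1 in tree 4. Its difference was 0.90 log2 units. PtStettler14.01G149200 (chromosome 1, 13963555 to 13963962, plus strand) had branch means of 26.4 to 36.0 scaled TPM in tree 14, against 12.4 to 20.8 in tree 13 and 15.5 to 21.2 in tree 4. Its libraries did not overlap, with 24.6 to 38.1 in tree 14, against at most 23.3 in tree 13 and 21.9 in tree 4. PtStettler14.01G258700 (chromosome 1, 31220413 to 31222721, minus strand) had 2.30 to 4.44 in tree 14, against 1.58 to 1.74 in tree 13 and 1.48 to 2.19 in tree 4. Its margin was narrow, with 2.30 in 14.1 against 2.19 in 4.5. These last 2 genes were picked out for their 5 branches after their values were seen. All 3 also differed among the branches of tree 14, with limma adjusted p = 0.024, 0.0026 and 0.00095 in the order given.

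Another group of higher genes reached its level only in 14.3, 14.4 and 14.5. PtStettler14.10G036000 lies at 7514910 to 7517448 of chromosome 10, minus strand. In 14.1 to 14.5 the branch means were 53.7, 59.2, 108, 114 and 107 scaled TPM, against 19.3, 35.9, 57.4, 62.8 and 43.9 in 13.1 to 13.5 and 34.1, 56.0, 52.4, 24.2 and 54.8 in 4.1 to 4.5. The 9 libraries of 14.3 to 14.5 lay between 101 and 122, above the 67.9 and 62.5 that were the highest in trees 13 and 4, whereas the 6 libraries of 14.1 and 14.2 lay within the range of the other trees. The split within tree 14 was 0.95 log2 units (SE 0.08, limma adjusted p = 4.8e-11).

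PtStettler14.06G202700 (chromosome 6, 23198421 to 23200569, minus strand) followed the same course, with a Pearson correlation of 0.953 with PtStettler14.10G036000 over the 45 libraries, which share branches and scaling. It averaged 51.7, 48.4, 93.9, 97.5 and 88.2 scaled TPM in 14.1 to 14.5, against 14.4 to 58.1 in tree 13 and 23.3 to 76.0 in tree 4, and its split was 0.89 log2 units (SE 0.08, limma adjusted p = 2.0e-10). PtStettler14.13G122900 (chromosome 13, 14812536 to 14816263, plus strand) varied less in the other trees. Its branch means were 15.5, 17.9, 27.0, 34.8 and 34.1 scaled TPM in 14.1 to 14.5, against 10.9 to 17.4 in tree 13 and 12.7 to 17.6 in tree 4. It had the smallest adjusted p of these 3 in the split, with 0.89 log2 units (SE 0.07, limma adjusted p = 1.7e-11).

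PtStettler14.11G132400 ran the other way within tree 14. It lies at 17729680 to 17731663 of chromosome 11, minus strand, and its branch means were 99.1, 92.6, 73.0, 60.5 and 52.6 scaled TPM in 14.1 to 14.5, against 68.2, 47.3, 39.5, 40.2 and 41.9 in 13.1 to 13.5 and 59.3, 32.7, 33.3, 48.8 and 23.5 in 4.1 to 4.5. Branches 14.1, 14.2 and 14.3 were above every branch of the other trees and 14.4 and 14.5 were not. It was the 1 higher gene that limma called lower in 14.3 to 14.5 than in 14.1 and 14.2, by -0.63 log2 units (SE 0.10, limma adjusted p = 5.2e-06).

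**Figure D4:**
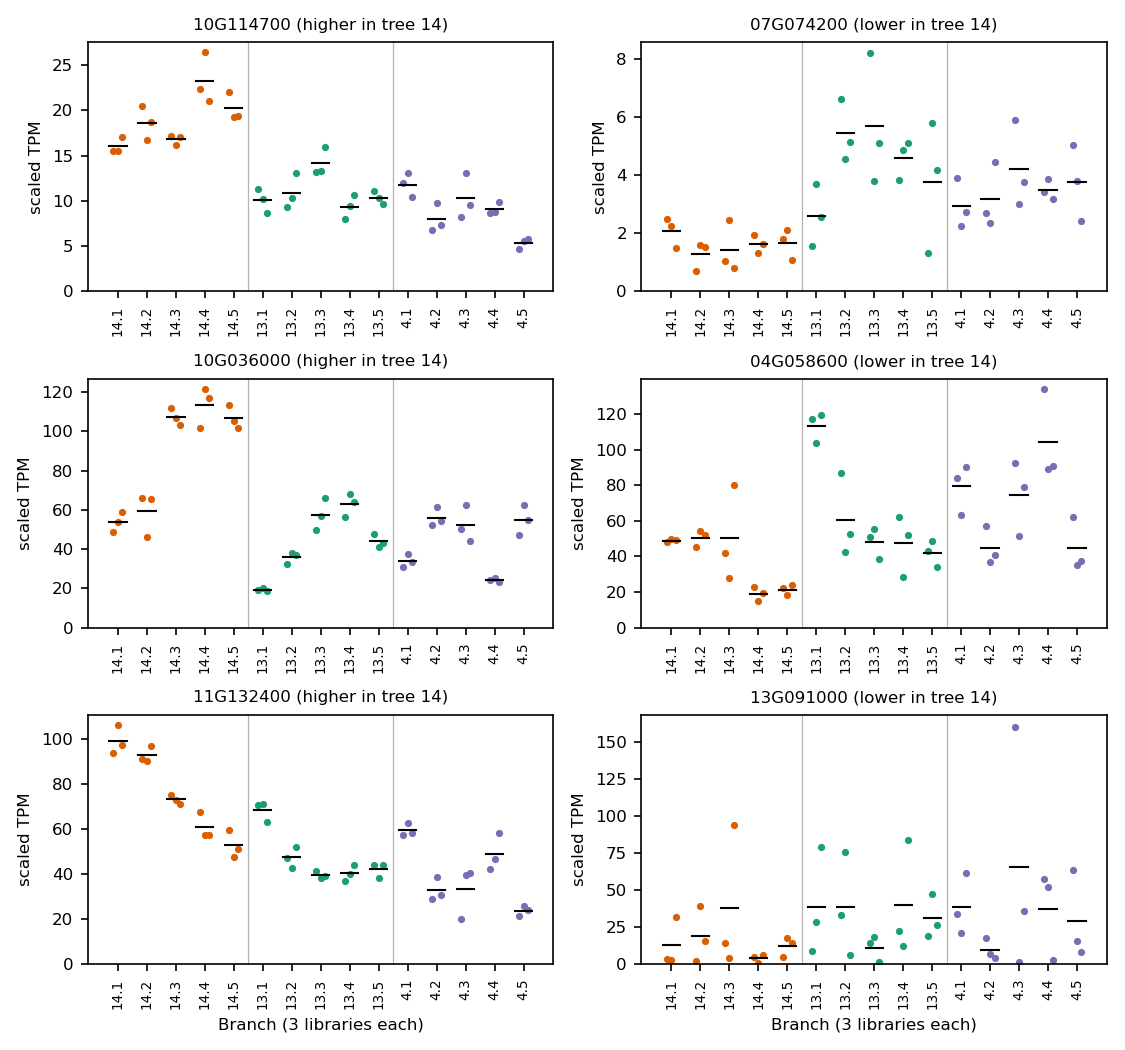
Scaled TPM of 6 members in each library (points, 3 per branch, with the branch mean as a bar) over the branches of tree 14 (orange), tree 13 (green) and tree 4 (purple); the prefix PtStettler14 is left out of the names. PtStettler14.10G114700 and PtStettler14.07G074200 are apart in every branch of tree 14, PtStettler14.10G036000 in 14.3 to 14.5, PtStettler14.11G132400 in 14.1 to 14.3 and PtStettler14.04G058600 in 14.4 and 14.5, while PtStettler14.13G091000 varies as much between libraries of a branch as between trees.

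Other higher genes varied widely between libraries of a branch. The standard deviation between libraries of a branch was larger than the tree difference for 8 of 18 higher genes, against 80.1% of the genes that could be chosen. Members were chosen for large differences, which lowers their share. Of these 8 genes, 6 belonged to the co-varying set. PtStettler14.07G059500 and PtStettler14.07G055000, both 102 bases long and on the plus strand of chromosome 7, at 7106257 to 7106358 and 6769932 to 6770033, correlated at 0.997 over the 45 libraries, and reads of near-identical genes could have been divided between them. PtStettler14.07G059500 had a lowest value of 2.18, a median of 7.15 and a highest of 231 scaled TPM in tree 14, against 1.09, 4.54 and 20.4 in tree 13 and 1.14, 3.72 and 23.3 in tree 4. The highest value of both genes was in 14.1 replicate 3. Without that library their differences on deposited TPM were 0.40 and 0.33 log2 units, against 0.72 and 0.66 with it.

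PtStettler14.11G062900, of the same set (chromosome 11, 7378873 to 7379220, minus strand), had a lowest value of 12.4, a median of 32.1 and a highest of 262 scaled TPM in tree 14, against 5.47, 20.4 and 50.4 in tree 13 and 5.90, 17.0 and 91.2 in tree 4. Leaving out 14.1 replicate 3 likewise reduced the differences of PtStettler14.06G143100, PtStettler14.08G200400 and PtStettler14.13G144500, also of the set, by over 1.5 times, to 0.37, 0.29 and 0.35 log2 units on deposited TPM, against 0.58, 0.57 and 0.53 with it. These 3 genes were named after their values were seen. Whether the co-varying set had a part in the differences of its members was not tested.

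Outside the set, PtStettler14.01G042600 (chromosome 1, 3787425 to 3788819, minus strand) had a lowest value of 8.70, a median of 34.7 and a highest of 41.6 scaled TPM in tree 14, against 7.82, 9.60 and 40.6 in tree 13 and 6.59, 9.47 and 39.1 in tree 4. The range was thus shared by the trees, and the median library lay near the top of it in tree 14 and near the bottom in the others. PtStettler14.12G091700 (chromosome 12, 12459703 to 12464681, minus strand) overlaps PtStettler14.12G091800 on the same strand, so that its level is uncertain. It reached 52.6 scaled TPM in 14.2 replicate 1, and 0.65 and 0.38 in the other libraries of 14.2. Without that library its difference on deposited TPM was 0.29 log2 units, against 0.64 with it.

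Among the lower genes, 9 lay below every branch of the other trees in all 5 branches of tree 14. PtStettler14.07G074200 lies at 9980304 to 9980643 of chromosome 7, minus strand. Its branch means were 2.07, 1.28, 1.44, 1.63 and 1.66 scaled TPM in 14.1 to 14.5, against 2.60 to 5.68 in tree 13 and 2.95 to 4.22 in tree 4. Over libraries the lowest, median and highest values were 0.698, 1.60 and 2.47 in tree 14, against 1.34, 4.57 and 8.18 in tree 13 and 2.24, 3.43 and 5.90 in tree 4, so that single libraries overlapped. Its difference of -0.89 log2 units was the largest of the 9, and at this level a value rests on few fragments.

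PtStettler14.03G005000 (chromosome 3, 667219 to 668075, plus strand) had branch means of 3.37, 2.78, 3.48, 2.82 and 2.54 scaled TPM in 14.1 to 14.5, against 4.11 to 7.67 in tree 13 and 4.75 to 7.15 in tree 4. PtStettler14.06G123100 (chromosome 6, 11540950 to 11541752, plus strand) was the most even within tree 14, with 4.34, 3.98, 4.50, 4.34 and 4.18 scaled TPM, against 5.35 to 6.93 in tree 13 and 4.96 to 9.99 in tree 4. The other 6 of these genes, named after their values were seen, were PtStettler14.05G133800, PtStettler14.06G051000, PtStettler14.06G036800, PtStettler14.18G017700, PtStettler14.01G182300 and PtStettler14.04G081900. The most abundant was PtStettler14.06G036800 (chromosome 6, 3007881 to 3009487, plus strand), with 72.1 to 92.5 scaled TPM in tree 14, against 102 to 155 in tree 13 and 95.9 to 135 in tree 4, a difference of -0.44 log2 units. Of the 9 genes, 2 differed among the branches of tree 14 by the limma F test, 4 among those of tree 13 and 2 among those of tree 4, where 21.3%, 21.1% and 30.2% of all genes did.

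Some lower genes were low in 14.4 and 14.5. PtStettler14.04G058600 lies at 5627907 to 5628855 of chromosome 4, minus strand. Its branch means were 48.9, 50.5, 50.2, 19.1 and 21.4 scaled TPM in 14.1 to 14.5, against 113, 60.7, 48.2, 47.6 and 42.1 in 13.1 to 13.5 and 79.3, 44.9, 74.4, 105 and 44.96 in 4.1 to 4.5. The 6 libraries of 14.4 and 14.5 lay between 14.7 and 23.9, below the 28.5 and 35.3 that were the lowest in trees 13 and 4. PtStettler14.04G040000 (chromosome 4, 3572433 to 3573814, minus strand) had branch means of 8.29, 8.85, 7.17, 4.69 and 3.46 scaled TPM in 14.1 to 14.5, against 22.5, 9.11, 9.33, 8.18 and 5.39 in 13.1 to 13.5 and 6.29 to 10.1 in tree 4. Branches 14.1 and 14.2 of this gene were within the range of the other trees, and 13.1 stood above all other branches. Averaged over 14.3 to 14.5, both genes were lower than in 14.1 and 14.2. The first was so by -0.89 log2 units (SE 0.19, limma adjusted p = 0.00047), although its 14.3 was level with 14.1 and 14.2. The second was so by -0.69 (SE 0.07, and by limma an adjusted p of 8.6e-10), and it was named for its small p in the F test within tree 14.

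In other lower genes the low level began at 14.3. PtStettler14.05G193000 (chromosome 5, 21720503 to 21722199, plus strand) had branch means of 14.7, 11.7, 7.20, 5.66 and 6.96 scaled TPM in 14.1 to 14.5, against 7.32 to 18.7 in tree 13 and 8.61 to 17.1 in tree 4. Its split within tree 14 was -0.90 log2 units (SE 0.08, limma adjusted p = 9.6e-11), and it was named for its small p in the F test within tree 14, as was the next gene. PtStettler14.01G016100 (chromosome 1, 1365944 to 1366721, minus strand), which overlaps a longer gene on the same strand over 777 of its bases, had 63.0, 61.2, 34.0, 30.2 and 34.4 scaled TPM, against 46.4 to 83.8 in tree 13 and 29.3 to 93.1 in tree 4. The lowest branch of tree 4 was thus below all of tree 14. PtStettler14.02G033400 (chromosome 2, 2254997 to 2256878, minus strand) had 4.57, 3.40, 1.97, 1.53 and 2.11 scaled TPM, against 1.90 to 4.91 in tree 13 and 2.24 to 5.91 in tree 4, and PtStettler14.18G075400 (chromosome 18, 11452738 to 11453312, plus strand) had 118, 104, 74.9, 63.5 and 70.6, against 84.9 to 144 and 67.4 to 184. In these genes 14.1 and 14.2 were within the range of the other trees, and the lower mean of tree 14 came from its other 3 branches.

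PtStettler14.13G076400 was the most abundant of the named lower genes. It lies at 7192798 to 7194581 of chromosome 13, minus strand. Branch means were 345, 380, 303, 232 and 276 scaled TPM in 14.1 to 14.5, against 1126, 759, 443, 384 and 471 in 13.1 to 13.5 and 1107, 318, 612, 682 and 237 in 4.1 to 4.5. Of the tree 14 branches only 14.4, at 232, was below the lowest branch of the other trees, 4.5 at 237. The difference of -0.82 log2 units included high branches in the other trees, among them 13.1 and 4.1.

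These courses resembled a difference between branches that trees 13 and 4 also held. The leading component of the branch deviations within trees 13 and 4 took 44.4% of their variance, with 13.1, 4.1 and 4.4 at 0.48, 0.46 and 0.38 on one side and 4.5 at -0.44 on the other. On the same axis tree 14 was at 0.30 in 14.1, 0.25 in 14.2, -0.11 in 14.3, -0.26 in 14.4 and -0.17 in 14.5. Over the 10 branches of trees 13 and 4, 19 of 82 lower genes correlated with the axis above 0.8, as did 13.4% of all genes. Of the higher genes, 6 of 18 correlated below -0.8, as did 11.8% of all genes. PtStettler14.06G202700 had a correlation of -0.98 and PtStettler14.11G132400 one of 0.97. The 10 points share the branches that defined the axis, and the values are a description. Of the 7 higher and 21 lower genes past 0.8 in either direction, 7 and 13 were called in the split of tree 14, where 63.4% of all 5987 genes past 0.8 were.

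Many lower genes varied widely between libraries of a branch. The standard deviation between libraries of a branch exceeded the tree difference for 27 of 82 lower genes, against 80.1% of the genes that could be chosen. Members were chosen for large differences, which lowers their share. Over all lower genes this standard deviation had a median of 0.32 log2 units, against 0.13 for the genes that could be chosen. The highest of the 45 libraries was 4.3 replicate 1 for 29 of 82 lower genes, or 35.4%, against 6.63% of the genes that could be chosen. PtStettler14.13G091000 (chromosome 13, 11478342 to 11480510, minus strand) had a lowest value of 0.698, a median of 5.90 and a highest of 94.2 scaled TPM in tree 14, against 1.04, 22.1 and 84.2 in tree 13 and 1.32, 21.0 and 161 in tree 4. The trees overlapped over nearly their whole range, and its difference of -1.12 log2 units was smaller than its standard deviation of 1.68 between libraries.

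PtStettler14.02G199300 (chromosome 2, 20875897 to 20877293, minus strand) had a lowest value of 3.05, a median of 7.99 and a highest of 21.4 scaled TPM in tree 14, against 3.99, 26.9 and 191 in tree 13 and 3.76, 12.5 and 200.1 in tree 4. The high libraries were 4.3 replicate 1 and 13.1 replicate 3, and the other libraries of these branches were at 3.76 to 26.8. PtStettler14.02G035600, PtStettler14.05G190900 and PtStettler14.18G084700 peaked in the same libraries, with 32.0, 16.4 and 84.9 scaled TPM in 4.3 replicate 1, against 0.477, 0 and 2.54 in 4.3 replicate 2. In tree 14 the highest library of these 3 genes reached 6.30, 3.10 and 17.0 scaled TPM.

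PtStettler14.02G035600 lies at 2405752 to 2407391 of chromosome 2, minus strand, PtStettler14.05G190900 at 21546212 to 21546811 of chromosome 5, plus strand, and PtStettler14.18G084700 at 12269335 to 12269577 of chromosome 18, plus strand. Over the 45 libraries the first of them correlated at 0.943 with the second. PtStettler14.09G100700 (chromosome 9, 9701717 to 9702709, plus strand) had its highest value of 20.7 scaled TPM in 4.1 replicate 3, and a lowest value of 0.272, a median of 1.99 and a highest of 5.51 in tree 14. Without 4.3 replicate 1 the median difference of the 82 lower genes was -0.44 log2 units, against -0.47 with it, and no lower gene lost over 1.5 times of its difference. What set that library apart was not tested.

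The top member lies inside another member. PtStettler14.09G070000, the higher gene with the largest difference, is at 7650248 to 7651001 of chromosome 9, plus strand, within PtStettler14.09G069900, a lower gene on the minus strand from 7650116 to 7654462. The inner gene was above 0 in 7 of 15 libraries of tree 14, at 11.8 to 17.5 scaled TPM, in 1 of 15 of tree 13, at 13.9 in 13.1 replicate 1, and in 0 of 15 of tree 4, where it is listed at 0. In the 7 libraries of tree 14 the outer gene had 2.13 to 2.72 scaled TPM, and in that of tree 13 it had 1.85. Where the inner gene was at 0, the outer gene had 5.23 to 7.04 in tree 14, 5.50 to 7.54 in tree 13 and 5.11 to 6.97 in tree 4. The levels thus fell into 2 separate states, and both occurred within branches of tree 14.

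The correlation of the pair was -0.971 over the 45 libraries, which share branches and scaling. Over the libraries with the inner gene at 0, an alternative chosen after seeing the data, the outer gene differed by 0.02 log2 units between tree 14 and the others, against -0.44 over all libraries. The libraries were strand-specific, but the study's methods name no strand option for alignment or counting, so that reads of the 2 genes may not have been told apart, and neither level is certain.

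**Figure D5:**
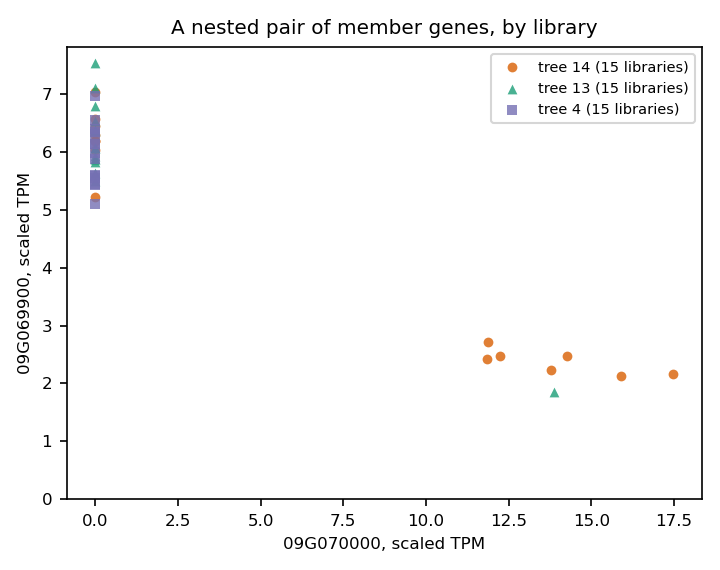
Scaled TPM of PtStettler14.09G069900 (y axis) against that of PtStettler14.09G070000, which lies inside it (x axis), in each library of tree 14 (orange circles), tree 13 (green triangles) and tree 4 (purple squares). In 8 libraries, 7 of tree 14 and 1 of tree 13, the inner gene is at 11.8 to 17.5 and the outer gene at 1.85 to 2.72; in the other 37 the inner gene is at 0.

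Other members also lay near each other. PtStettler14.14G158100 and PtStettler14.14G158400, on the minus strand of chromosome 14 from 15534854 to 15535102 and from 15554852 to 15555172, are the 2 lower genes of the co-varying set and correlated at 0.997. In tree 14 the first had a lowest value of 4.51, a median of 12.8 and a highest of 1406 scaled TPM, against 7.72, 22.2 and 318 in tree 13 and 6.57, 22.4 and 600 in tree 4. Tree 14 held both the lowest and the highest library, and its arithmetic mean of 152 ± 199 (SD, n = 5 branches) was above the 75.5 ± 55.3 of tree 13 and the 93.7 ± 90.6 of tree 4, opposite to the log2 means that chose the gene. PtStettler14.19G102800 and PtStettler14.19G103000, on the minus strand of chromosome 19 from 14630957 to 14631429 and from 14635479 to 14635745, correlated at 0.797. Their branch means were 6.17 to 9.85 and 3.02 to 4.23 scaled TPM in tree 14, against 8.51 to 15.5 and 4.20 to 6.94 in tree 13 and 8.09 to 14.3 and 3.84 to 5.75 in tree 4.

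PtStettler14.06G122900 (chromosome 6, 11479562 to 11486948, plus strand) stands 54001 bases from PtStettler14.06G123100 and correlated with it at 0.451. Its means by branch were 14.4 to 17.5 scaled TPM in tree 14, against 15.6 to 24.96 in tree 13 and 18.3 to 31.2 in tree 4. Its neighbour was below the other trees in all 5 branches of tree 14 and it was so in 2. Several genes at a distance moved together more closely, among them PtStettler14.02G027400, PtStettler14.05G031200, PtStettler14.01G016100 and PtStettler14.18G075400 on 4 chromosomes, whose 6 correlations over the 45 libraries ran from 0.941 to 0.985. They were picked for being among the closest of all pairs of members. All 4 genes were past 0.8 on the branch axis of trees 13 and 4, as were 5987 of all tested genes.

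The members were spread over the genome. The higher genes lay on 11 chromosomes and the lower genes on 16, with at most 12 members on a chromosome, chromosome 6, which held 7.97% of the genes that could be chosen. Of the genes that flank the higher members and had a mean of at least 2 TPM, 20 of 25 were higher in tree 14. Their median difference was 0.09 log2 units. Of those that flank the lower members 48 of 93 were higher, with a median of 0.00. Among all genes with such a mean 51.4% were higher, and whether position had a part was not tested. The members were shorter than genes at large, with a median span of 1242 bases for the higher and 1556 for the lower genes, against 3831 for the genes that could be chosen. Under 500 bases were 6 of 18 higher and 10 of 82 lower genes, against 1.64% of the genes that could be chosen. An overlap with an annotated gene was found for 2 higher and 6 lower members, against 7.51% of the genes that could be chosen.

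Membership depended on the libraries used. Leaving out 1 branch at a time, the rule took 14 to 28 higher genes and shared 67 to 84 genes with the 100. Leaving out 1 library at a time, it shared 69 to 94 genes. The lowest of these, 69, was without 4.3 replicate 2, and the count of higher genes was 30 without 14.1 replicate 3 and 29 without 4.1 replicate 3. In all 15 omissions of a branch 6 higher and 20 lower genes stayed, and in all 45 omissions of a library 4 and 28 did. In all 60 omissions 2 higher genes, PtStettler14.10G036000 and PtStettler14.01G149200, and 19 lower genes stayed. The 19 included PtStettler14.07G074200, PtStettler14.03G005000 and PtStettler14.06G036800, which lay below the other trees in all 5 branches, and PtStettler14.05G190900 and PtStettler14.18G084700, which peaked in single libraries.

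The rule was also run on scaled TPM with 2 of the 3 replicate numbers, and the libraries of the remaining number were then looked at. With replicate 1 held out, 83 of 94 higher and 6 of 6 lower genes were on the same side, with replicate 2 held out 55 of 56 and 38 of 44, and with replicate 3 held out 50 of 50 and 41 of 50. Between 48.0% and 52.0% of the genes that could be chosen were on each side. The genes chosen shared 18, 44 and 47 with the 100, and the held-out libraries came from the same branches, so that this measures agreement between libraries. On deposited TPM without the replicate 1 libraries the rule took 49 higher and 51 lower genes and shared 42 with the 100.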

How the data were processed

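Leaf RNA of 45 libraries was sequenced with a strand-specific kit. The authors trimmed reads with Trimmomatic 0.36, aligned them to the Stettler genome, assembled from branch 14.5, with HISAT2 2.1.0, and deposited TPM and FPKM values from StringTie 1.3.4d for 34700 genes per library. TPM is relative to the library's total. Depth was recovered from FPKM steps, and precision is limited by it. TPM was divided by median-of-ratios factors of 0.502 to 1.28 over 25014 genes above 0 everywhere, and analysed as log2(scaled TPM + 1), which understates changes of low genes. The 23816 genes that reached 1 TPM in 3 or more libraries were tested by limma 3.58.1 (R 4.3.3), using a trend and Benjamini-Hochberg adjustment. Trees were fitted on branch means, branches on libraries. Python 3.11.15, numpy 2.4.6 and pandas 2.3.3 were used.

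The members and lists were chosen with earlier results of these data known. Named genes were the 10 higher and 10 lower members with the largest differences on deposited TPM, the 3 of each with the smallest p in the F test within tree 14, members within 3 genes of another member, members at 0 in whole trees, and the 2 genes on either side of the limit. The fits were tested on simulated data. Alternatives covered the pseudocount, scaling, filters, the trend, omitted branches and libraries, and a replicate block.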

Additional observations from a re-analysis of the deposited data

Results flagged for a closer look

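Each group of 5 branches of a tree was examined for a branch whose mean stood far from the other 4, in gap over range, for the named genes. Of 99 groups 10 had such a branch, and none of the causes was tested. No chance rate is set beside this count, since the levels were not on a log scale and the genes were named by their values. Values are branch means in scaled TPM.

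In tree 14 the 1 case was PtStettler14.12G091700, at 17.9 in 14.2 and 3.61 in the next branch, from 1 library at 52.6. In tree 13, branch 13.1 was highest for 4 genes: PtStettler14.09G070000 at 4.63 with the other branches at 0, from 1 library at 13.9, PtStettler14.11G132400 at 68.2 with the next branch at 47.3, PtStettler14.04G058600 at 113 with the next at 60.7, and PtStettler14.04G040000 at 22.5 with the next at 9.33. The last 3 had high values in all 3 libraries of 13.1, at 63.0 to 70.9, 104 to 119 and 20.9 to 24.1. Branch 13.3 was lowest for PtStettler14.06G122900, at 15.6 with the next branch at 23.3.

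In tree 4, branch 4.2 was highest for PtStettler14.07G059500 at 13.5 with the next branch at 5.39, for PtStettler14.07G055000 at 18.5 with the next at 8.38, and for PtStettler14.14G158100 at 249 with the next at 87.2. All 3 belong to the co-varying set, and their highest library was 4.2 replicate 1, at 23.3, 32.3 and 600. The set held 32.5% of the TPM there. Branch 4.3 was highest for PtStettler14.02G035600 at 12.4 with the next at 5.38, from 4.3 replicate 1 at 32.0.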

How the results depend on the processing

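Of 476 counts under alternatives, 420 stayed within 1.5 times. Of 694 differences of 33 named genes, 683 kept their sign and moved by less than the spread. The spread was the standard deviation of the gene's own branch means in tree 14. A gene that varied widely between branches thus had a wide limit and an even gene a narrow one. The 683 is therefore no measure of how stable the differences were, and nothing is read from it. Exceptions to these limits were the following. On scaled TPM the rule took 67 higher and 33 lower genes with 48 shared, and on quantile-normalized TPM 61, 39 and 50. Without a filter limma called 29 members for tree 14 against the others, against 48. On deposited TPM it called 13 members within tree 14 (32 on scaled TPM), 20 within tree 13 (35), 21 within tree 4 (32), 19 in the split (32), and for single branches 7 in 14.1 (22), 3 in 14.2 (17), 0 in 14.3 (3), 0 in 14.4 (21) and 1 in 14.5 (11), with 10 members for 14.3 and 21 for 14.4 at an unadjusted p under 0.05. Quantile normalization gave 6 for 14.3. PtStettler14.14G158400 was at -0.75 log2 units without replicate 3 and reversed to 0.0165 without replicate 1, and PtStettler14.09G069900 reversed to 0.0183 with the inner gene at 0. At a pseudocount of 0.1, PtStettler14.09G070000 was at 3.08, PtStettler14.07G074200 at -1.23, PtStettler14.05G190900 at -1.44, PtStettler14.03G005000 at -0.89 and PtStettler14.06G123100 at -0.62. PtStettler14.06G123100 was also at -0.67 on deposited TPM, -0.47 without replicate 3 and -0.59 without branch 4.1, and PtStettler14.06G122900 at -0.55 on deposited TPM. The causes were not tested.

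Leaving out replicates or branches gave 13 to 49 higher, 51 to 87 lower and 42 to 94 shared genes, 16 to 65 members called for tree 14 against the others, 19 to 32 within tree 14, 22 to 40 within tree 13, 24 to 38 within tree 4, 26 to 35 in the split, and for 14.1 to 14.5 14 to 23, 5 to 17, 0 to 5, 8 to 23 and 2 to 13. The 0 for 14.3 came without replicate 2, without replicate 3 and without 14.3 replicate 3, with 15, 18 and 15 members at an unadjusted p under 0.05. Replicate numbers showed little pairing of the samples. Deviations of same-numbered libraries correlated at a median of 0.015, and 121 of 315 pairs were over 0.1. Between libraries of different numbers the median was -0.009, and 202 of 630 pairs were over 0.1. With the replicate number as a block limma called 34 members within tree 14, 39 within tree 13, 33 within tree 4, 34 in the split and 48 for tree 14 against the others. Depth limits values far below 1 TPM.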

Other observations

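The same rule on scaled TPM took 52 genes that are not among the 100, of which 51 were higher and 1 was lower in tree 14. Of these 52 genes 17 belonged to the co-varying set, against 6 of 18 higher and 2 of 82 lower members. Of 19893 genes with a mean of at least 2 TPM, 51.4% were higher in tree 14 on scaled TPM.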
